A study of Mus musculus with 10 samples.

Results

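Nr4a1, Nr4a2, Nr4a3, Egr1, Egr2, Egr3 and Nfatc1 are genes that T cells switch on when their antigen receptor is engaged. The chromatin at these 7 genes was followed by ATAC-seq, in which a transposase inserts adaptors into open DNA, in regulatory T cells (Tregs) of young mice with and without Vps34. A peak belonged to a gene if it lay in the gene body or within 10 kb of it in the GRCm38 annotation, and 72 of the 97385 peaks of the count table did so. All 72 held enough counts to be tested. Nfatc1 had 33 peaks, Nr4a1 10, Nr4a3 and Egr1 7 each, Egr3 6, Nr4a2 5 and Egr2 4.

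Receptor signals reach these genes along separate branches. Calcium activates the phosphatase calcineurin, which lets NFAT proteins enter the nucleus, and NFAT drives Nfatc1 itself as well as the Nr4a genes. The kinase cascade that runs through Ras and ERK acts on serum response factor and its partners at the Egr genes. In Tregs the Nr4a proteins, orphan nuclear receptors, help to maintain Foxp3, Egr2 and Egr3 are zinc finger factors that restrain activation, and Nfatc1 is an NFAT family member with an inducible short form.

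Tregs were sorted, per the sample labels, as CD4+Foxp3-YFP+TCRb+ cells from mice 10 days of age, although the design text names TCRb for the lung sort only. All of these mice carried a Cre recombinase expressed from Foxp3. Control mice were Pik3c3+/+ or Pik3c3+/fl, and Vps34-deficient mice were Pik3c3fl/fl, so that the gene for the lipid kinase Vps34 was deleted in cells that express Foxp3. Spleen was represented, per the labels, by 2 control and 4 Vps34-deficient libraries, and lung by 2 libraries of each genotype. The methods text instead gives 4 control and 2 Vps34-deficient spleen samples. The methods give group sizes in mice, and whether spleen and lung libraries came from the same mice is not stated, so p-values measure the spread between these libraries. Levels are given as counts per 1e6 counts of the library total (CPM).

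Library totals ran from 9405823 to 22439699 counts. Each library had promoter peaks at all 7 T cell and Treg marker genes examined, with a summed level of 130.4 to 183.0 CPM and Foxp3 at 4.06 to 8.32 CPM. Of 7 B cell markers, 4 had a promoter peak, with sums of 27.4 to 35.5 CPM, and Cd79a and Ms4a1 were among those with none. Of 8 myeloid markers, 4 had a promoter peak (Cd14, Spi1, Cebpa and Itgam), and Lyz2, Csf1r, Fcgr3 and Adgre1 had none. The summed level of those 4 was 38.0 to 39.1 CPM in spleen controls and 25.9 to 33.3 CPM in Vps34-deficient spleen libraries. Lung controls had 42.1 to 48.0 CPM, and Vps34-deficient lung libraries 26.5 to 28.3 CPM. Each of the 4 was lower in both Vps34-deficient lung libraries than in lung controls, whereas in spleen the genotypes separated at Spi1 (13.1 and 16.5 CPM in controls against 10.2 to 12.6) and Cebpa (14.9 and 16.2 against 10.4 to 13.8) and overlapped at Cd14 and Itgam. The sum of the CD8 and NK list (4 of 6 genes with a promoter peak) moved the other way in lung, with 24.0 to 30.4 CPM in controls and 33.8 to 36.8 CPM in Vps34-deficient libraries, and overlapped between genotypes in spleen. Of these genes, Cd8b1 and Eomes separated the lung genotypes, whereas Cd8a and Klrd1 overlapped. The sum of the lung epithelium and endothelium list (5 of 8 genes) was 54.1 to 55.3 CPM in spleen controls and 52.1 to 53.9 CPM in Vps34-deficient spleen libraries, and overlapped in lung. The part of these markers in the genotype results was not tested. In bulk libraries, fewer cells with an open site and less access per cell cannot be told apart.

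The promoters of the 7 genes were open in every library. At each gene the promoter peak with the most counts, within 1 kb of an annotated start, was taken as its main promoter. Its position is given as the distance of the peak centre from the start of the annotated gene, and for genes with several start sites the main promoter can lie downstream of that point. The lowest, median and highest levels over the 10 libraries were 60.5, 71.5 and 81.6 CPM at Nr4a1 (+12.5 kb) and 55.7, 61.9 and 79.1 CPM at Nr4a2 (+9.2 kb). They were 52.0, 56.0 and 69.7 CPM at Nr4a3 (-0.1 kb). At Egr1 (+1.1 kb) they were 61.6, 75.9 and 85.5 CPM, at Egr2 (+1.8 kb) 95.7, 107.8 and 115.2 CPM, and at Egr3 (-0.3 kb) 19.6, 25.0 and 29.7 CPM. Nfatc1 (+5.3 kb) had 37.6, 52.6 and 57.6 CPM.

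**Figure D1:**
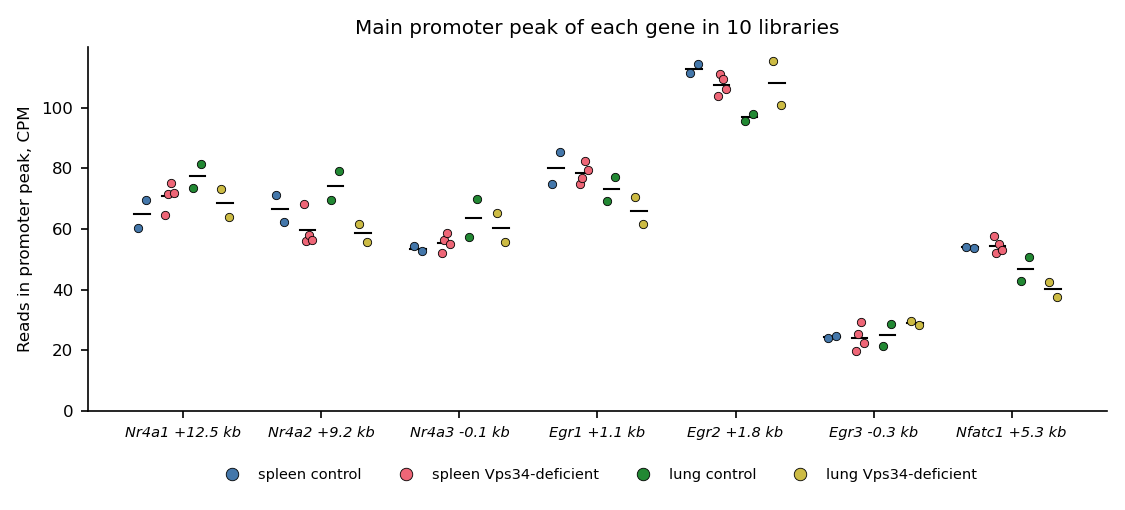
Main promoter peak of each of the 7 genes, in CPM on a linear axis from 0, with 1 point for each library and a line at the group mean. Egr2 was highest with 95.7 to 115.2 CPM and Egr3 lowest with 19.6 to 29.7 CPM. At Nfatc1 the lung points lie below the spleen points. The lung genotypes do not overlap at Nr4a1, Nr4a2 and Nfatc1, with Vps34-deficient libraries lower, nor at Egr2, with Vps34-deficient libraries higher.

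Because peaks differ in width, these promoters were ranked per kb of peak. Nr4a1 was first, with a median of 102.9 CPM per kb (87.0 to 117.4), before Nr4a3 with 85.3 (79.1 to 106.1), Egr2 with 78.3 (69.5 to 83.7), Egr1 with 76.3 (61.9 to 85.9), Egr3 with 56.6 (44.4 to 67.3), Nr4a2 with 46.1 (41.5 to 58.9) and Nfatc1 with 35.3 (25.2 to 38.6). The ranges of neighbours in this order overlapped, except that Nr4a2 was above Nfatc1 in all 10 libraries.

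The promoter peaks held letter matches to elements of factors that receptor signals activate. Short stretches around them are shown because receptor signals are known to act through such elements, and the capitals mark the match. At Nr4a2 it is the cyclic AMP response element (CRE, TGACGTCA on both strands), at chr2:57115067-57115096. At Egr2 the matches are serum response elements (SREs), at chr10:67537484-67537513 and chr10:67537787-67537816. All are on the plus strand of GRCm38 as held by RefSeq.
Nr4a2 promoter, CRE: tatttccgaccTGACGTCAcgactggggct
Egr2 promoter, first SRE: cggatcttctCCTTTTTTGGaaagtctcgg
Egr2 promoter, second SRE: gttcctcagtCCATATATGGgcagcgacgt

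In the 300 bases at the centre of each peak, an SRE was found in 3 of 72 member peaks and in 1.40% of all 97250 peaks that could be read. A CRE was found in 1 of 72, the Nfatc1 peak at +104.5 kb, and in 0.846%. The element of the Egr proteins themselves (GCGNGGGCG) was found in 6 of 72 and in 2.51%, and in 9.86% of promoter peaks over the whole table. The short NFAT element (TGGAAA) was found in 17 of 72 and in 24.0%, and AP-1 (TGANTCA) in 9 of 72 and in 13.0%. The Nr4a element (AAAGGTCA) was found in 0 of 72 and in 2.225%, and an ETS element (CCGGAAG) in 2 of 72 and in 4.44%. The elements shown for Nr4a2 and Egr2 lie outside these central windows, so whole peaks were also compared with all peaks of a width within 10% of theirs. A CRE was found in 5.52% of the 1377 peaks as wide as that of Nr4a2. Of the 1240 peaks as wide as that of Egr2, 3.95% held an SRE and 0.242% at least 2. The full main promoter peak of Egr1 held 5 SREs and 2 Egr elements, where 3.98% of 3766 peaks of its width held an SRE, 1 of them (that of Egr1) at least 5, and 20.2% an Egr element. That of Nr4a1 held 2 Egr elements, where 8.71% of peaks of its width held at least 1 and 1.92% at least 2. The 200 bases before the RefSeq start of Nr4a1 (chr15:101266646-101266845, plus strand, RefSeq promoter table for GRCm38) lie in that peak, with an Egr element in capitals, which 4.28% of all 32851 such windows hold.
Nr4a1 upstream window: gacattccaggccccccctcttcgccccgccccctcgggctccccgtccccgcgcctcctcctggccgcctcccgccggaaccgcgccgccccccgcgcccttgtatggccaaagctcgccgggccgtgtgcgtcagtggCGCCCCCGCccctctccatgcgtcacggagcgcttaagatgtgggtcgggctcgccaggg

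The first comparison asked whether loss of Vps34 alters access at these promoters. By edgeR's quasi-likelihood test, 0 of the 18 promoter peaks passed the call rule in either tissue or averaged over both. The rule asked for a log2 fold change beyond 0.5 in either direction and for a p, adjusted over all tested peaks after Benjamini and Hochberg, under 0.05. DESeq2 also called 0. At an unadjusted p below 0.05 there were 0 promoter peaks in spleen, 3 in lung and 1 in the average, and all 4 of these values were lower in Vps34-deficient cells. Of all 97109 tested peaks, 13901, 19705 and 23644 had such a p by edgeR. Log2 fold changes of the 18 ran from -0.17 to 0.26 in spleen, with standard errors (SE) of 0.0751 to 0.217, and from -0.36 to 0.21 in lung, with SEs of 0.0884 to 0.260. Over all promoter peaks of the table, 0.565% were called in spleen, 2.79% in lung and 2.93% in the average.

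Among the main promoters, the lowest lung value was at Nr4a2, which encodes an orphan receptor of the Nr4a family. Its levels were 69.5 and 79.1 CPM in lung controls and 61.7 and 55.7 CPM in Vps34-deficient lung libraries. Spleen controls had 71.2 and 62.1 CPM, and Vps34-deficient spleen libraries 68.4, 56.1, 57.9 and 56.2 CPM. The groups did not overlap in lung and did so in spleen. Lung groups also did not overlap at the main promoters of Nr4a1, Nfatc1 and Egr2, the last being higher after deletion. The log2 fold change was -0.36 (SE 0.117) in lung and -0.16 (SE 0.0988) in spleen, and neither passed (adjusted p of 0.0727 and 0.508 by edgeR). The value averaged over tissues was -0.24 (SE 0.0772, adjusted p = 0.0458), which is below the fold change required for a call.

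Counts summed over all peaks of a gene gave 1 level per gene and library. Of the 7 sums, 0 were called in the genotype comparison in spleen, in lung or averaged, where 0.176%, 1.97% and 2.45% of 17652 protein-coding genes were. At an unadjusted p below 0.05 there were 0, 3 and 1, and DESeq2 called 0 in each. Of all 17652 genes, 1775, 3590 and 3891 had such a p by edgeR. Nfatc1 summed to 413.4 and 424.8 CPM in spleen controls and to 392.7, 401.9, 417.0 and 394.7 CPM in Vps34-deficient spleen libraries. The lung sums were 337.3 and 389.2 CPM for controls and 361.6 and 333.5 CPM after deletion. Its log2 fold change in spleen was -0.05 (SE 0.0559), and that in lung was -0.03 (SE 0.0656). For the other 6 genes it ran from -0.13 (Nr4a2) to 0.10 (Nr4a1) in spleen and from -0.26 (Egr1) to 0.24 (Egr2) in lung. The Egr2 sum includes the peak at +13.7 kb, which lies on the start of the neighbouring gene Ado and whose lung mean was 41.1 ± 2.52 CPM in controls and 51.7 ± 6.68 CPM after deletion (SD, n = 2 each), where the whole sum was 153.5 ± 5.23 and 176.8 ± 18.4 CPM. The Nr4a1 sum likewise includes a peak, at +29.7 kb, on the start of Atg101. The genotype calls at these genes were at single peaks away from the promoters.

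In spleen, 0 of 72 member peaks were called higher, where 0.441% of all tested peaks were, and 3 were called lower, where 1.02% were. Fitted alone, the spleen libraries did give member peaks called higher, in a fit that called 1370 peaks higher and 1798 lower over the whole table. At an unadjusted p below 0.05, 5 member peaks were higher and 4 lower, and DESeq2 called 1 higher and 3 lower. Over all 97109 tested peaks, 13901 had such a p by edgeR in either direction, and DESeq2 called 650 higher and 1142 lower. In lung, 1 was called higher against 1.22% of all peaks, and 6 lower against 3.74%. Averaged over tissues, 3 were called higher against 3.52% of all peaks, and 5 lower against 4.06%. The median log2 fold change of the 72 was -0.05 in spleen and -0.08 in lung, and that of all tested peaks was 0.05 and 0.02.

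Nfatc1 encodes the NFAT factor that is induced in effector T cells, and its lower peaks lay inside the gene. The gene is 106867 bp long on the minus strand of chromosome 18 (80606205 to 80713071). The 5 peaks called lower in a genotype comparison lay 26.8, 28.6, 63.8, 83.9 and 93.4 kb downstream of its start. All are in introns apart from the peak at +63.8 kb, which overlaps an untranslated exon of an annotated transcript.

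**Figure D2:**
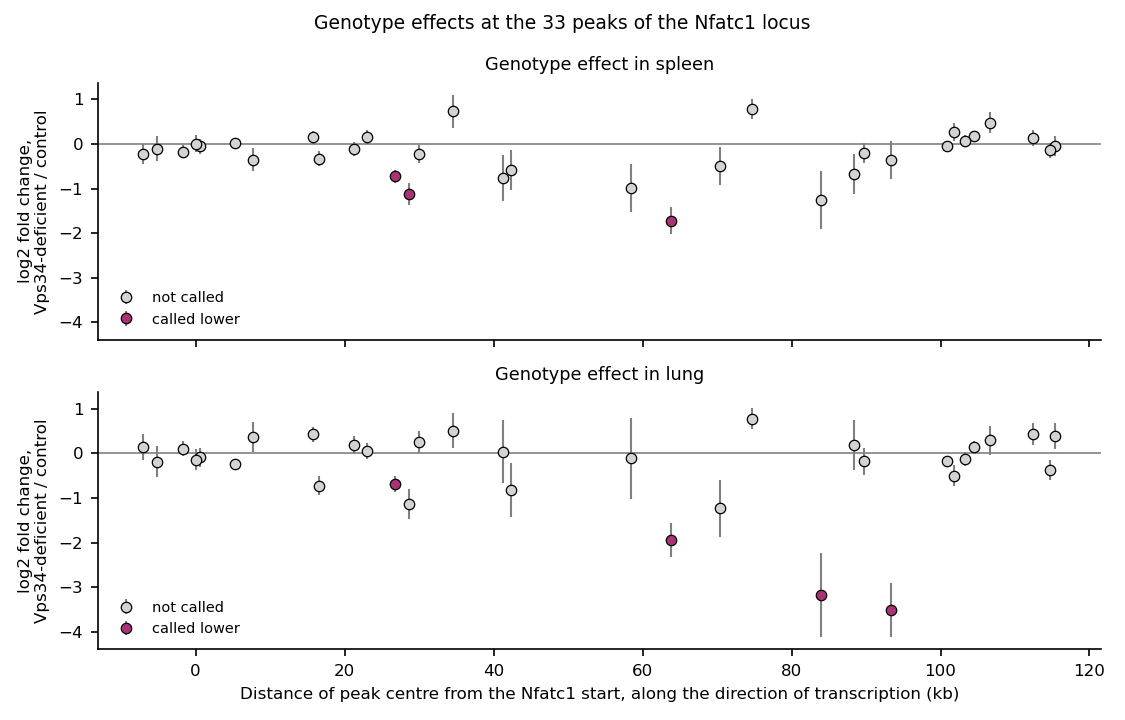
Genotype effects at the 33 Nfatc1 peaks, as log2 fold change of Vps34-deficient over control with bars of 1 SE, against distance from the gene start in kb. Called peaks are coloured and the others grey: in spleen those at +26.8, +28.6 and +63.8 kb, and in lung those at +26.8, +63.8, +83.9 and +93.4 kb.

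The peak at +63.8 kb (chromosome 18, 80649021 to 80649598) was called lower in both tissues. Levels were 3.74 and 4.68 CPM in spleen controls and 1.53, 1.10, 1.53 and 0.861 CPM in Vps34-deficient spleen libraries. Lung controls had 5.95 and 6.07 CPM and Vps34-deficient lung libraries 1.30 and 1.91 CPM. Every Vps34-deficient library lay below every control library, also across tissues. This amounted to a log2 fold change of -1.72 in spleen (SE 0.303, adjusted p = 0.00274) and of -1.95 in lung (SE 0.383, adjusted p = 0.00317) by edgeR's quasi-likelihood test, with p adjusted after Benjamini and Hochberg as throughout. Averaged over tissues the level was 3.5-fold lower (adjusted p = 1.6e-05). Without spleen control replicate 2 the spleen value was -1.58 (adjusted p = 0.0812), and that in lung was -1.60 (adjusted p = 0.0760) once lung Vps34-deficient replicate 1 was left out. The average was called in all 10 fits that left out 1 library.

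The peak at +26.8 kb (chromosome 18, 80686077 to 80686524) was the most accessible of the 5. It had 24.6 and 24.0 CPM in spleen controls and 13.8, 16.3, 16.7 and 11.9 CPM in Vps34-deficient spleen libraries. Lung controls had 21.5 and 20.6 CPM and Vps34-deficient lung libraries 14.1 and 12.3 CPM. The 2 genotypes did not overlap within or across tissues. By log2 fold change the peak was lower by -0.72 (SE 0.147, adjusted p = 0.00998) in spleen, -0.69 (SE 0.184, adjusted p = 0.0277) in lung and -0.71 (SE 0.115, adjusted p = 0.000237) in the average. The spleen call was lost without spleen control replicate 1 (-0.76, adjusted p = 0.118) or replicate 2 (-0.77, adjusted p = 0.0871). The lung call was lost without any 1 of the 6 spleen control, lung control and lung Vps34-deficient libraries, with adjusted p of 0.0587 to 0.222 and values of -0.73 to -0.52. The average was kept in all 10.

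The peak at +28.6 kb (chromosome 18, 80684299 to 80684732) lies beside it. It had 6.28 and 9.23 CPM in spleen controls and 3.20, 4.53, 2.80 and 3.73 CPM in Vps34-deficient spleen libraries. Lung controls were at 4.78 and 5.79 CPM and Vps34-deficient lung libraries at 2.60 and 2.33 CPM, so the genotypes did not overlap in either tissue. Its log2 fold change was -1.12 (SE 0.248, adjusted p = 0.0192) in spleen, -1.13 (SE 0.337, adjusted p = 0.0519) in lung, where it missed the threshold, and -1.12 (SE 0.199, adjusted p = 0.000665) in the average. Without spleen control replicate 2 the spleen value was -0.85 (adjusted p = 0.300).

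The peaks at +83.9 kb (chromosome 18, 80629067 to 80629261) and +93.4 kb (80619607 to 80619824) were weak, and their calls rest on few reads. At +93.4 kb the lung controls had 26 and 50 counts (2.76 and 3.53 CPM), and the Vps34-deficient lung libraries 4 and 2 counts (0.325 and 0.212 CPM). Spleen controls had 1.38 CPM in both libraries, and Vps34-deficient spleen libraries 1.25, 0.979, 0.812 and 1.29 CPM. The lung difference was thus wide and the spleen difference narrow, although neither overlapped. Fitted log2 fold changes were -3.51 (SE 0.613, adjusted p = 0.00107) in lung and -0.36 (SE 0.42, adjusted p = 0.778) in spleen by edgeR's quasi-likelihood test. From the summed reads, 6 against 76, the level in Vps34-deficient lung was 0.0855 of that in lung controls, with an exact 95% interval of 0.0304 to 0.195 that covers counting error only. The lung call was kept in all 10 fits that left out 1 library.

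At +83.9 kb the lung controls had 17 and 22 counts (1.81 and 1.55 CPM) and the Vps34-deficient lung libraries 4 and 0 counts. Spleen controls had 0.624 and 1.51 CPM, and Vps34-deficient spleen libraries 0.417, 0.734, 0.18 and 0.431 CPM, which overlapped. In lung the fitted log2 fold change was -3.18 (SE 0.941, adjusted p = 0.0487). From 4 against 39 summed reads, the ratio was 0.111, with an exact 95% interval of 0.0288 to 0.308 for counting error. This call was lost in 9 of the 10 fits without 1 library, the exception being spleen Vps34-deficient replicate 3, with adjusted p of 0.0519 to 0.249. Without lung Vps34-deficient replicate 1 that group holds 0 reads and no fold is given (adjusted p = 0.0652 by edgeR), and without lung Vps34-deficient replicate 2 the value was -2.28 (adjusted p = 0.249).

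In the average over tissues the peak at +83.9 kb was lower by -1.90 on the log2 scale (SE 0.559, adjusted p = 0.0325) and that at +93.4 kb by -1.42 (SE 0.449, adjusted p = 0.0466). The first call was lost without spleen control replicate 2, lung control replicate 2 or either Vps34-deficient lung library (adjusted p of 0.0626 to 0.131). The second was lost without spleen Vps34-deficient replicate 2 or any 1 of the 4 lung libraries (adjusted p of 0.0528 to 0.164).

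A single Nfatc1 peak was called higher, at +74.7 kb (chromosome 18, 80638228 to 80638440, intron), between the lower ones. It had 4.37 and 4.68 CPM in spleen controls and 9.32, 6.61, 6.77 and 8.61 CPM in Vps34-deficient spleen libraries. Lung controls had 14.2 and 8.61 CPM and Vps34-deficient lung libraries 18.03 and 21.4 CPM. Within each tissue every Vps34-deficient library lay above the controls, whereas the ranges overlapped across tissues. A log2 fold change of 0.79 (SE 0.225, adjusted p = 0.0788) was found in spleen and of 0.78 (SE 0.24, adjusted p = 0.0586) in lung, and only the average of 0.78 (SE 0.164, adjusted p = 0.00323) was called, in all 10 fits that left out 1 library.

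**Figure D3:**
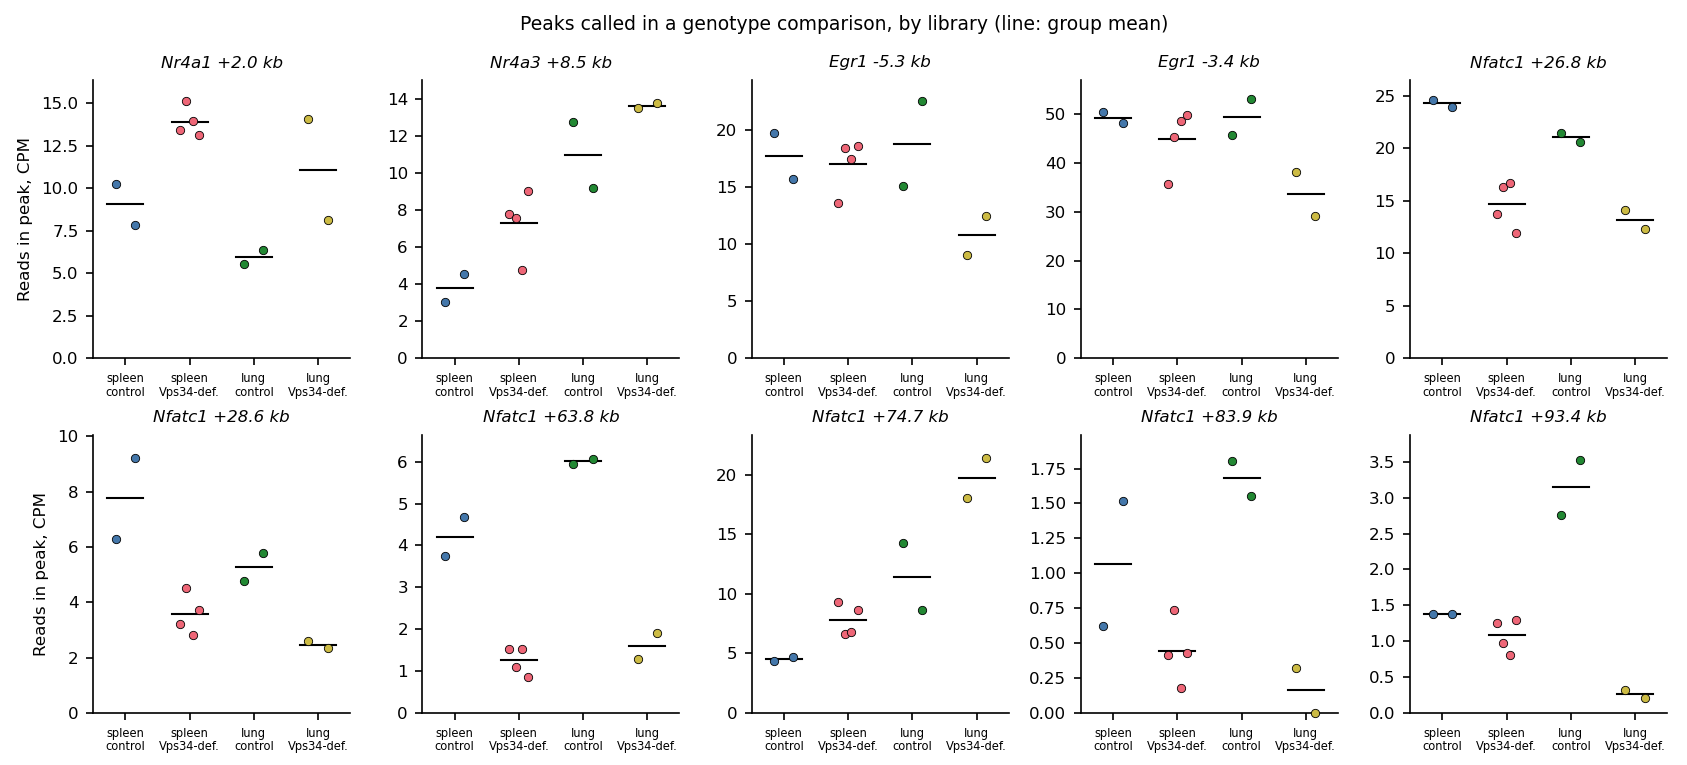
The 10 peaks called in a genotype comparison, in CPM on linear axes from 0, with 1 point for each library and a line at the group mean. At Nfatc1 +63.8 kb the 4 control libraries had 3.74 to 6.07 CPM and the 6 Vps34-deficient libraries 0.861 to 1.91 CPM.

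The remaining 27 Nfatc1 peaks were not called in a genotype comparison. Over all 33, log2 fold changes lay between -1.72 and 0.79 in spleen and between -3.51 and 0.78 in lung, with medians of -0.14 and -0.11. The 5 promoter peaks of Nfatc1 were among those not called. The main promoter peak, which overlaps coding and untranslated exon sequence, had 54.1 and 53.9 CPM in spleen controls and 57.6, 52.1, 55.1 and 53.1 CPM in Vps34-deficient spleen libraries, which overlapped. Lung controls had 42.95 and 50.7 CPM and Vps34-deficient lung libraries 42.6 and 37.6 CPM, with a log2 fold change of -0.25 (SE 0.118, adjusted p = 0.234).

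Of the 5 lower Nfatc1 peaks, that at +26.8 kb held the NFAT element, that at +93.4 kb held AP-1, and that at +83.9 kb held the RUNX element (TGTGGTT). Each was found 1 time. None of the 8 elements searched was found in the peaks at +63.8 and +28.6 kb, nor in the higher peak at +74.7 kb.

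At the Nr4a genes the peaks called in a genotype comparison were higher in Vps34-deficient cells. Nr4a1 encodes Nur77, a marker of recent receptor signalling. Its peak at +2.0 kb (intron) had 10.2 and 7.85 CPM in spleen controls and 13.4, 15.1, 13.9 and 13.1 CPM in Vps34-deficient spleen libraries. The lung levels were 5.53 and 6.35 CPM for controls and 14.1 and 8.15 CPM for Vps34-deficient libraries. The genotypes did not overlap within a tissue, and the Vps34-deficient lung libraries lay far apart. On the log2 scale the difference was 0.62 (SE 0.2, adjusted p = 0.124) in spleen, 0.88 (SE 0.249, adjusted p = 0.0377) in lung and 0.72 (SE 0.157, adjusted p = 0.00487) in the average. The average was called in all 10 fits that left out 1 library. The lung call was lost without lung Vps34-deficient replicate 1 (0.50, adjusted p = 0.347), lung control replicate 2 (1.04, adjusted p = 0.0946) or any 1 of the 4 Vps34-deficient spleen libraries (0.88, adjusted p of 0.0504 to 0.0581).

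Nr4a3 encodes NOR1, the third orphan receptor of the family. Its peak at +8.5 kb (intron) had 3.03 and 4.55 CPM in spleen controls and 7.79, 7.58, 4.78 and 9.04 CPM in Vps34-deficient spleen libraries. Lung controls had 12.8 and 9.17 CPM and Vps34-deficient lung libraries 13.5 and 13.8 CPM. Vps34-deficient libraries lay above controls in each tissue. Its log2 fold change was 0.96 (SE 0.257, adjusted p = 0.0600) in spleen and 0.30 (SE 0.27, adjusted p = 0.561) in lung, and the average of 0.65 (SE 0.198, adjusted p = 0.0379) was called. That call was lost without spleen control replicate 1 (0.45, adjusted p = 0.196) and without any 1 of 5 other libraries, namely spleen control replicate 2, spleen Vps34-deficient replicates 1, 2 and 4 and lung control replicate 2 (0.57 to 0.71, adjusted p of 0.0586 to 0.0740).

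The Nr4a1 peak at +2.0 kb is shown as a region called between genotypes where the promoters were not. It is given whole (chr15:101256131-101256422, plus strand), with an NFAT element and an AP-1 element in capitals.
Nr4a1 +2.0 kb: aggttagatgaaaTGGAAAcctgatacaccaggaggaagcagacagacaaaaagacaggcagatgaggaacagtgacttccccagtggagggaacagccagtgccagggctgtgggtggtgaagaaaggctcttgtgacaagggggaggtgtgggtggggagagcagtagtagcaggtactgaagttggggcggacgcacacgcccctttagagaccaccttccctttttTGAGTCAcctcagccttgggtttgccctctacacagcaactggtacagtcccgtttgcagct

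Nr4a2 had no call in any comparison. All 5 of its peaks had a log2 fold change below 0 in spleen (-0.36 to -0.04) and in lung (-0.51 to -0.15), and none of these values passed the test.

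At the Egr genes the calls were 2 lower peaks upstream of Egr1 in lung. Egr1 encodes an immediate early zinc finger factor. The peak at -5.3 kb (chromosome 18, 34854296 to 34854806) had 15.1 and 22.6 CPM in lung controls and 9.10 and 12.5 CPM in Vps34-deficient lung libraries. Spleen controls had 19.8 and 15.7 CPM and Vps34-deficient spleen libraries 13.6, 18.5, 17.5 and 18.7 CPM. The groups overlapped in spleen and not in lung. On the log2 scale Vps34-deficient libraries differed by -0.85 (SE 0.221, adjusted p = 0.0242) in lung and -0.06 (SE 0.178, adjusted p = 0.933) in spleen. The lung call was lost without lung control replicate 2 (-0.47, adjusted p = 0.403) or lung Vps34-deficient replicate 1 (-0.55, adjusted p = 0.270).

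The peak at -3.4 kb (34856185 to 34856607) had 45.7 and 53.1 CPM in lung controls and 38.2 and 29.2 CPM in Vps34-deficient lung libraries. Spleen controls had 50.4 and 48.1 CPM and Vps34-deficient spleen libraries 35.8, 45.4, 48.6 and 49.9 CPM, which overlapped. The fold changes, as log2, were -0.57 in lung (SE 0.148, adjusted p = 0.0236) and -0.13 in spleen (SE 0.123, adjusted p = 0.705). The lung call at Egr1 -3.4 kb was lost without spleen control replicate 2 (-0.50, adjusted p = 0.0632), lung control replicate 2 (-0.41, adjusted p = 0.246) or lung Vps34-deficient replicate 2 (-0.32, adjusted p = 0.325). Both peaks also lie within 10 kb of Reep2. When the lung libraries were fitted alone, 70 of the member peaks were tested, and 0 were called higher, where 0.153% of all peaks tested in that fit were, and 2 lower, where 1.85% were. The 2 were Nfatc1 +63.8 and +93.4 kb. The lung calls at Nfatc1 +26.8 and +83.9 kb, Nr4a1 +2.0 kb and both Egr1 peaks were not made in that fit.

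Egr2 and Egr3 had no call in a genotype comparison. At Egr2, which together with Egr3 opposes T cell activation, the log2 fold changes of the 4 peaks were -0.17 to 0.26 in spleen and -0.0048 to 0.31 in lung. Those of the 6 Egr3 peaks were -0.21 to 0.14 in spleen and -0.07 to 0.57 in lung. The main Egr3 promoter had 24.1 and 24.9 CPM in spleen controls and 19.6, 25.2, 29.2 and 22.3 CPM in Vps34-deficient spleen libraries. It had 21.3 and 28.5 CPM in lung controls and 29.7 and 28.3 CPM in Vps34-deficient lung libraries, and the groups overlapped in both tissues.

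A difference in the effect of genotype between spleen and lung was tested as an interaction. By edgeR's quasi-likelihood test 0 of 72 member peaks were called, and 0.0% of all tested peaks were. DESeq2 called 0 of the 72. By edgeR 8 had an unadjusted p below 0.05, as did 7060 of all 97109 tested peaks. The smallest p was at Nfatc1 +93.4 kb, with a difference of -3.15 (SE 0.763, adjusted p = 0.323). At Egr1 -5.3 kb it was -0.79 (SE 0.285, adjusted p = 0.522). The wider effects in lung at these peaks are therefore not shown to differ from those in spleen. Of the 7 locus sums 0 were called for the interaction, as were 0.0% of all genes, with 2 at an unadjusted p below 0.05 (Egr2 and Egr3) and 0 by DESeq2. Of all 17652 genes, 1064 had such a p by edgeR.

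**Figure D4:**
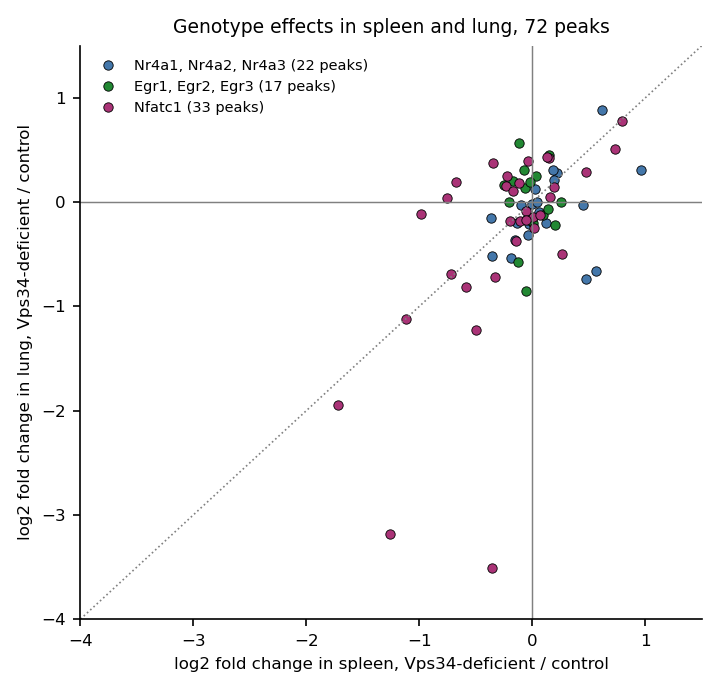
Genotype effects at the 72 peaks in spleen (x axis) and lung (y axis), as log2 fold change of Vps34-deficient over control, coloured by gene family, with a dotted line of equal effects. The Nfatc1 peak at +63.8 kb was low in both tissues (-1.72 and -1.95), and those at +83.9 and +93.4 kb lie below the dotted line (-3.18 and -3.51 in lung).

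Spleen and lung effects share no library, although they share the fit and the peak set and may share mice. Across the 72 peaks they correlated with r = 0.56, and 44 of 72 had the same sign. Across all 97109 tested peaks r was 0.46 and 66.8% had the same sign, so the members resembled the table as a whole in this respect. Peaks of a gene are not independent replicates.

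The second comparison asked how these loci differ between lung and spleen Tregs. In controls, 4 of 72 member peaks were called higher in lung, where 11.8% of all tested peaks were, and 1 lower, where 3.53% were. In Vps34-deficient libraries 3 were called higher against 12.5% of all peaks, and 3 lower against 4.72%. Averaged over genotypes 5 were higher against 18.4%, and 4 lower against 6.51%. Members called higher in lung thus made up a smaller share than peaks of the table at large in each of these comparisons, with no test of that difference. Of the 18 promoter peaks 0 were called by edgeR or DESeq2, with 2, 5 and 3 at an unadjusted p below 0.05, where edgeR called 6.27%, 7.01% and 9.48% of all promoter peaks. Of all 97109 tested peaks, 28386, 30120 and 37451 had an unadjusted p below 0.05 by edgeR. At the main Nfatc1 promoter all 4 lung libraries (37.6 to 50.7 CPM) lay below all 6 spleen libraries (52.1 to 57.6 CPM). Its lung over spleen value was -0.39 (SE 0.102, adjusted p = 0.00953) in Vps34-deficient libraries and -0.13 (SE 0.115, adjusted p = 0.517) in controls, short of the fold required.

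Nr4a3 had both peaks at which all lung libraries lay above all spleen libraries and which were called higher. At +8.5 kb, with the levels given above, all 4 lung libraries (9.17 to 13.8 CPM) lay above all 6 spleen libraries (3.03 to 9.04 CPM). The log2 fold change of lung over spleen was 1.62 (SE 0.289, adjusted p = 0.000515) in controls, 0.96 (SE 0.23, adjusted p = 0.00495) in Vps34-deficient libraries and 1.23 (SE 0.191, adjusted p = 2.45e-05) in the average. At +42.6 kb, downstream of the gene, levels were 1.96 and 1.38 CPM in spleen controls and 5.74 and 4.73 CPM in lung controls. Vps34-deficient libraries had 2.23, 2.69, 2.26 and 2.87 CPM in spleen and 3.57 and 3.07 CPM in lung. The tissues did not overlap here either. Lung over spleen the log2 fold change was 1.69 (SE 0.342, adjusted p = 0.00152) in controls, 0.46 (SE 0.298, adjusted p = 0.311) in Vps34-deficient libraries and 1.01 (SE 0.257, adjusted p = 0.00399) in the average. The genotypes are not shown to differ in this, with an interaction of -1.23 (SE 0.455, adjusted p = 0.544). All calls of both peaks were kept in each fit that left out 1 library. The Nr4a3 peak at +42.6 kb is shown because its tissue difference was the widest of those called in controls. These are its central 300 bases (chr4:48087565-48087864, plus strand), with a RUNX element on the minus strand in capitals. RUNX elements were found in 5 of 72 member windows and in 10.8% of all peaks.
Nr4a3 +42.6 kb: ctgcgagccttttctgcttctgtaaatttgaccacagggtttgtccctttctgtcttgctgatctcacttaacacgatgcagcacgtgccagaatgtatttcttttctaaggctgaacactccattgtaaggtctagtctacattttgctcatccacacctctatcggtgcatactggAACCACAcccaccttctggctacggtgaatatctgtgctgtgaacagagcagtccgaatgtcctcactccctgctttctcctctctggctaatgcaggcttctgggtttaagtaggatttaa

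At Nfatc1 the peaks higher in lung were at +74.7 and +34.5 kb. The peak at +74.7 kb, which was also higher in Vps34-deficient cells, differed between tissues by 1.39 (SE 0.255, adjusted p = 0.000639) in controls, by 1.39 (SE 0.2, adjusted p = 4.28e-05) in Vps34-deficient libraries and by 1.39 (SE 0.157, adjusted p = 2.85e-07) in the average. These calls were kept in all 10 fits that left out 1 library, and the average had the smallest adjusted p of any tissue call at the 7 genes. That at +34.5 kb (chromosome 18, 80678421 to 80678630, intron) had 1.25 and 3.03 CPM in spleen controls and 6.80 and 3.25 CPM in lung controls. Vps34-deficient libraries had 4.87, 2.81, 2.3 and 3.88 CPM in spleen and 7.80 and 6.35 CPM in lung. Within each genotype the lung libraries were higher, with log2 fold changes of 1.32 (SE 0.426, adjusted p = 0.0358) in controls and 1.10 (SE 0.336, adjusted p = 0.0238) in Vps34-deficient libraries. The control call at +34.5 kb was lost without spleen control replicate 1 (0.67, adjusted p = 0.444), lung control replicate 1 (0.66, adjusted p = 0.415), spleen Vps34-deficient replicate 2 (1.24, adjusted p = 0.0567) or lung Vps34-deficient replicate 1 (1.28, adjusted p = 0.05001). The call in Vps34-deficient libraries was lost without spleen Vps34-deficient replicate 2 or 3 or either Vps34-deficient lung library (0.88 to 1.3, adjusted p of 0.0562 to 0.164). The average over genotypes at +34.5 kb, 1.19 (SE 0.261, adjusted p = 0.00109 by edgeR), was called in all 10 fits without 1 library and under all 8 other settings.

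The Nfatc1 peaks called lower in lung lay between +58.5 and +114.7 kb. At +112.4 kb (chromosome 18, 80600340 to 80600974), downstream of the gene, spleen controls had 9.0 and 9.09 CPM and lung controls 4.68 and 5.93 CPM. Vps34-deficient libraries had 11.7, 9.42, 8.94 and 9.62 CPM in spleen and 7.47 and 7.20 CPM in lung. All 4 lung libraries lay below all 6 spleen libraries. The difference was -0.68 on the log2 scale in controls (SE 0.234, adjusted p = 0.0493) and -0.51 (SE 0.157, adjusted p = 0.0158) in the average. The control call was lost without spleen control replicate 1 (-0.79) or 2 (-0.72), spleen Vps34-deficient replicate 4 (-0.68) or lung control replicate 1 (-0.61), with adjusted p of 0.0599 to 0.160. The average was lost without spleen control replicate 2 (-0.46, adjusted p = 0.0511) or lung control replicate 1 (-0.42, adjusted p = 0.0617).

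The other tissue calls were Nr4a1 -7.0 kb (higher) and Nfatc1 +106.6, +89.7 and +58.5 kb (lower) in the average, and Nfatc1 +114.7 and +93.4 kb and Egr1 -5.3 kb (lower) in Vps34-deficient libraries. Each was lost without some single library. Nr4a1 -7.0 kb (0.50) was called in 3 of 10 such fits, those without spleen Vps34-deficient replicate 4, lung control replicate 1 or lung Vps34-deficient replicate 2, and fell to 0.27 (adjusted p = 0.252) without lung control replicate 2. It was also lost under 6 of 8 other settings, with values of 0.44 to 0.50. Nfatc1 +114.7 kb (-0.54) was called in 1 of 10, that without lung control replicate 2, and was -0.29 (adjusted p = 0.462) without lung Vps34-deficient replicate 2. Nfatc1 +89.7 kb (-0.51) was lost without either spleen control, spleen Vps34-deficient replicate 4, lung control replicate 1 or lung Vps34-deficient replicate 1, with adjusted p of 0.0583 to 0.196. Nfatc1 +106.6 kb (-0.60) was lost without spleen control replicate 1 or either Vps34-deficient lung library (adjusted p of 0.0607 to 0.0699), +58.5 kb (-1.58) without spleen control replicate 2, lung control replicate 1 or lung Vps34-deficient replicate 2 (0.0565 to 0.0674), and +93.4 kb (-1.88) without spleen Vps34-deficient replicate 4 or either Vps34-deficient lung library (0.0557 to 0.189). The Egr1 peak at -5.3 kb was lower in Vps34-deficient lung than spleen by -0.62 (SE 0.195, adjusted p = 0.0286). That value lost its call without spleen Vps34-deficient replicate 4 (-0.57, adjusted p = 0.0651) or lung Vps34-deficient replicate 1 (-0.34, adjusted p = 0.391). Of the locus sums 0 of 7 were called in any tissue comparison, where 8.31% of genes were in controls, 9.64% in Vps34-deficient libraries and 11.6% in the average. DESeq2 called 0 as well, with 2, 5 and 3 sums at an unadjusted p below 0.05. Of all 17652 genes, 5227, 5695 and 7417 had such a p by edgeR. Lung libraries had more signal than spleen libraries at the promoters of Cdh5 (1.13 to 3.39 against 0.18 to 1.07 CPM) and Nkx2-1 (1.3 to 2.12 against 0.361 to 1.11 CPM), markers of endothelium and lung epithelium, and of Klrd1 (2.96 to 6.35 against 1.38 to 2.45 CPM), a marker of NK cells. At the other 6 genes of these lists with a promoter peak the tissues overlapped, as at Epcam (16.8 to 22.6 in lung against 19.7 to 24.8 CPM in spleen), Kdr (2.76 to 6.63 against 4.46 to 6.32 CPM) and Cd8b1 (6.35 to 11.7 against 9.19 to 13.1 CPM). The sum of the lung epithelium and endothelium list overlapped between tissues (45.5 to 58.6 against 52.1 to 55.3 CPM), as did that of the CD8 and NK list (24.0 to 36.8 against 25.8 to 35.3 CPM). Sftpc, Sftpb, Tie1, Klrb1c and Ncr1 had no promoter peak, and the part of these cells in the tissue results was not tested.

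**Figure D5:**
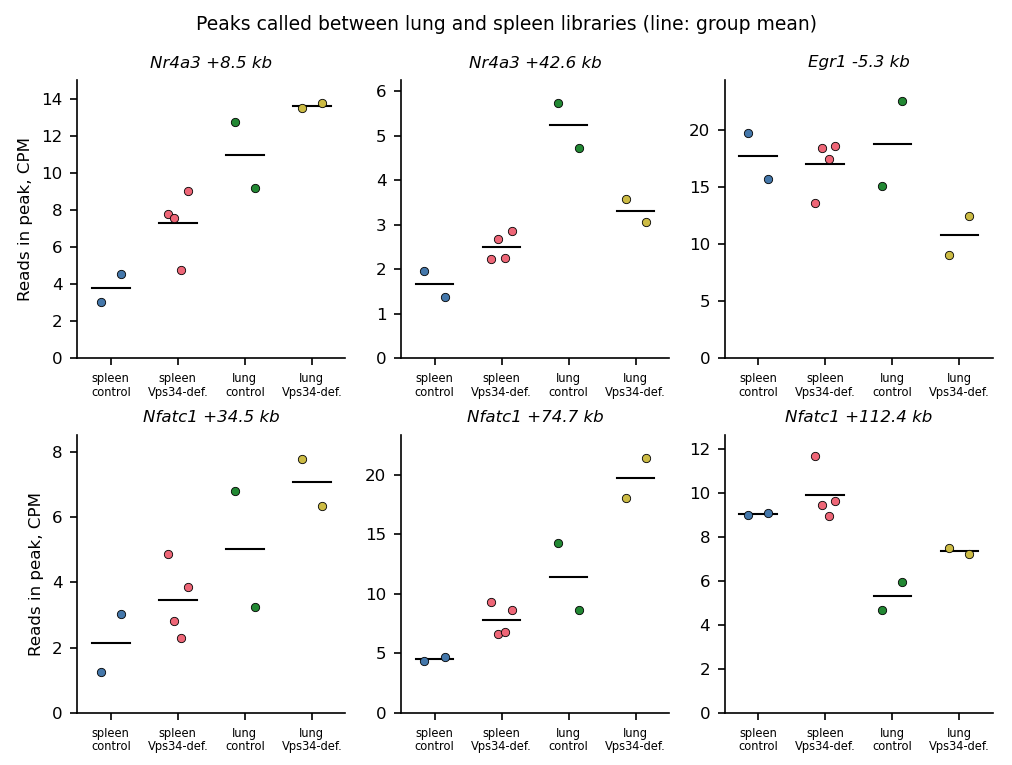
Peaks called between lung and spleen, in CPM on linear axes from 0, with 1 point for each library and a line at the group mean. At Nr4a3 +8.5 kb the 4 lung libraries (9.17 to 13.8 CPM) lay above the 6 spleen libraries (3.03 to 9.04 CPM), and at Nfatc1 +112.4 kb they lay below.

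Other genes of the pathway were examined as lists. The list of family members and corepressors (Egr4, Nfatc2, Nfatc3, Nfatc4, Nfat5, Nab1 and Nab2, the last a pair that represses Egr targets) had 61 tested peaks. In spleen 0 of these were called by edgeR. In lung 1 was higher and 2 lower, and in the average 1 was higher and 0 lower. The higher peak in both, named after its values were seen, lies at Nfatc2 (chromosome 2, 168532403 to 168532821). It had 1.27 ± 0.0041 CPM in lung controls and 4.37 ± 1.4 CPM in Vps34-deficient lung libraries (SD, n = 2 each), a log2 fold change of 1.77 (SE 0.382, adjusted p = 0.0067 by edgeR). In the average it was 1.10 (SE 0.246, adjusted p = 0.00558 by edgeR). The list median was 0.07 in spleen and -0.11 in lung. The Nab1 peak at chromosome 1, 52454473 to 52455198, fell by 2.3 on the log2 scale in lung (SE 0.368, adjusted p = 0.00044), from 6.19 ± 1.23 to 1.26 ± 0.285 CPM (SD, n = 2 each).

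The calcineurin list of 18 genes had 151 tested peaks, with 0 higher and 2 lower in spleen, 1 higher and 6 lower in lung, and 1 higher and 3 lower in the average. Both spleen calls were also lower in lung. They lay at Rcan1, an inhibitor of calcineurin that NFAT induces, and at Ppp3ca, the catalytic subunit. The Rcan1 peak (chromosome 16, 92443578 to 92444060) went from 25.0 ± 3.10 CPM (SD, n = 2) to 16.4 ± 2.27 CPM (n = 4) in spleen and from 20.5 ± 0.484 to 8.03 ± 0.324 CPM (n = 2 each) in lung. Its log2 fold change was -0.61 (SE 0.15, adjusted p = 0.0380 by edgeR) in spleen and -1.38 (SE 0.196, adjusted p = 0.000133) in lung. The Ppp3ca peak (chromosome 3, 136940795 to 136941567) changed by -0.64 (SE 0.152, adjusted p = 0.0312) in spleen and by -0.96 (SE 0.186, adjusted p = 0.00281) in lung. In the average another Ppp3ca peak (136761617 to 136761974) was lower by -1.82 (SE 0.325, adjusted p = 0.000704).

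The third list, of 20 other genes induced by the receptor or targeted by these factors, had 244 tested peaks. In spleen 0 were called higher and 2 lower, in lung 1 higher and 13 lower, and in the average 4 higher and 12 lower. The leading peaks were at Tox and Tox2, HMG-box factors that NFAT induces, and at Ier3, an immediate early gene. The Tox peak at chromosome 4, 6930658 to 6931032, was lower by -1.02 (SE 0.223, adjusted p = 0.0171 by edgeR) in spleen. A second Tox peak (6963485 to 6963972) was lower by -1.48 (SE 0.264, adjusted p = 0.00129) in lung. The Ier3 peak (chromosome 17, 35817605 to 35817902) was lower by -1.54 (SE 0.367, adjusted p = 0.0307) in spleen and by -2.63 (SE 0.501, adjusted p = 0.0024) in lung. The Tox2 peak (chromosome 2, 163228968 to 163229518) was lower by -1.05 (SE 0.147, adjusted p = 0.000117) in lung. The 4 peaks called higher in the average lay at Cblb, Rasgrp1 and Tox. That of Tox (6958105 to 6958906) was higher by 0.65 (SE 0.174, adjusted p = 0.0191 by edgeR).

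The shares of called peaks in the 3 lists were 0.0%, 1.32% and 0.82% in spleen and 4.92%, 4.64% and 5.74% in lung. They stand beside 1.46% and 4.96% of all tested peaks, and beside 4.17% and 9.72% of the 72 member peaks. Nfatc1 held all 3 calls in spleen and 4 of the 7 in lung, which is 9.09% and 12.1% of its 33 peaks. In the average the lists had 1.64%, 2.65% and 6.56% of their peaks called, where 7.57% of all tested peaks and 11.1% of the members were. No test of these differences was made.

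The genes whose summed accessibility followed each member most closely were found by Pearson correlation over the 10 libraries among 17072 protein-coding genes, with genes that share a peak or lie within 100 kb left out. For Nfatc1 they were Dync1h1 (r = 0.997), Mcm2 (0.993) and Dtnb (0.992). For Nr4a1 they were Hnrnpl (0.95), Prrc2a (0.95) and Gm49661 (0.93), for Nr4a2 Gm6525 (0.93), Osbpl9 (0.93) and Pde4dip (0.93), and for Nr4a3 3110082I17Rik (0.98), Gpr146 (0.97) and Trim25 (0.94). For Egr1 they were Mllt11 (0.98), 2810408A11Rik (0.98) and Slc29a2 (0.97), and Iqgap2 (0.95) and Ccne2 (0.92) were among the closest to Egr2. For Egr3 they were Eras and Pcsk1n, which share their peaks (0.91), and Sarm1 (0.85). These values are the highest of many, and all rest on the same 10 libraries, whose totals differ. The members' sums varied little, by 0.24 (Nr4a3) to 0.53 (Egr1) on the log2 scale between the lowest and the highest library.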

How the data were processed

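ATAC-seq counts of 10 Treg libraries were analysed. The deposited table gives read counts per peak, not normalized. Per the labels the authors' processing named cutadapt 1.9, Picard 1.65, MACS2 2.1.0.20150603, SAMtools and bedtools on GRCm38 (mm10), whereas the methods text names mm9. GRCm38 was used, since peaks of the table covered 51.3% of 21951 GRCm38 gene starts and 1.98% to 2.82% once shifted. The methods text gives the spleen group sizes the other way round, and the labels were followed. The sign of each spleen genotype effect rests on these labels. Under them, spleen and lung genotype effects had the same sign at 66.8% of all tested peaks. Counts were even for 91.5% to 96.5% of peaks, so both ends of a fragment were probably counted, and counting intervals are too narrow. Sequences came from RefSeq GRCm38; some sequences and genes are not reported here.

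Peaks were assigned to GENCODE genes. All peaks passing filterByExpr (97109) were fitted in edgeR 4.0.16 (R 4.3.3) with TMM factors and 4 groups, by quasi-likelihood tests whose p-values were adjusted (Benjamini-Hochberg) over all tested peaks. Averages were taken from an additive fit of tissue plus genotype, and SEs from dividing each fold change by the root of its F statistic. Calls needed an adjusted p under 0.05 with a log2 fold change beyond 0.5 either way. Counts per gene were summed and tested in the same way over 17652 genes. Replicate pairs differed by more than sampling of reads gives (chi-square over degrees of freedom of 2.77 to 5.37, or 1.39 to 2.69 on halved counts), and edgeR's common coefficient of variation was 17.8%. The procedure was tested on simulated data.

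All 7 genes were described, with the main promoter peak, every peak called in a genotype comparison, at most 2 tissue peaks per gene and comparison without overlap, the 3 most alike genes, and at most 5 list peaks per genotype comparison. Members, lists and markers were chosen with earlier results of these data known. A few list peaks called higher were added after their values were seen. Alternatives were other scalings, count filters, thresholds and distances, the Wald test of DESeq2 1.42.0, halved counts, a chromosome Y covariate (chromosome Y signal split each group), the replicate block, 1 tissue alone and leaving out each library.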

Additional observations from a re-analysis of the deposited data

Results flagged for a closer look

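The main promoter peak of Nr4a2 had 68.4 CPM in spleen Vps34-deficient replicate 1 and 56.1 to 57.9 CPM in the other 3 libraries of that group. The gap to the nearest library was 0.856 of the group's range, which is above Dixon's 95% critical value for 4 samples. It was the 1 value of 43 sets checked in this group that passed, and chance flags about 1 in 20.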

How the results depend on the processing

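No result changed direction in any alternative run. Across the alternatives, single called peaks kept their call 559 times and lost it 132 times. The main counts of called member peaks (higher, lower) were 0 and 3 for the genotype effect in spleen, 1 and 6 in lung, 3 and 5 in the average, and 4 and 1, 3 and 3, and 5 and 4 for the tissue effect in controls, in Vps34-deficient libraries and in the average. Deviations of same-numbered spleen and lung libraries of a genotype correlated by -0.0119 to 0.0380. In groups of 2 libraries these deviations mirror each other, so this check is weak. Chromosome Y signal was alike, high or low, in each such pair, and whether mice were shared is not known. With the replicate block the genotype counts were 0 lower in spleen, 0 higher and 2 lower in lung, and 3 lower in the average, and the tissue counts were 0 lower in controls, 1 higher and 0 lower in Vps34-deficient libraries, and 1 lower in the average. In the libraries of 1 tissue alone there were 3 higher in spleen, and 0 higher and 2 lower in lung. Counts over all tested peaks moved too, from 428 higher and 994 lower in spleen to 25 and 252 with the block and 1370 and 1798 in spleen alone, and from 1188 and 3632 in lung to 462 and 2310 and to 139 and 1684, so nothing particular to the members is read from these moves. DESeq2 gave 1 higher in spleen and 2 higher in lung. For the tissue effect it gave 2 lower in controls, 2 lower in Vps34-deficient libraries, and 4 higher and 5 lower in the average. Smaller moves under the other alternatives are not all listed. Median-of-ratios scaling, a mean count of at least 20 and the chromosome Y covariate each gave 2 higher in lung and 2 lower for the tissue effect in controls, and the mean count of at least 20 gave 2 lower for the averaged tissue effect. Halved counts gave 2 higher in lung and 4 lower for the tissue effect in controls, where library size scaling and no count filter gave 3 each. With adjusted p alone the tissue effect had 2 lower in controls, 6 lower in Vps34-deficient libraries and 8 lower in the average, and 1 and 2 locus sums were called in the last pair. The main promoter of Nr4a2 also passed that rule in the averaged genotype effect, as lower (adjusted p = 0.0458 by edgeR). At an absolute log2 fold change above 1 there were 0 higher and 3 lower in lung, 0 higher in the average, 0 lower for the tissue effect in controls, 1 lower in Vps34-deficient libraries and 1 lower in the average. Within 2 kb of the genes the tissue effect had 0 lower in controls and 1 lower in Vps34-deficient libraries. Within 50 kb there were 1 higher in spleen, and tissue counts of 7 higher in controls, 7 higher and 8 lower in Vps34-deficient libraries, and 9 higher and 8 lower in the average. Leaving out 1 library in turn gave 0 to 2 higher and 0 to 3 lower in spleen, 0 to 2 higher and 2 to 7 lower in lung, 2 to 4 higher and 3 to 6 lower in the average, and tissue counts of 3 to 5 higher and 0 to 6 lower in controls, 2 to 3 higher and 0 to 6 lower in Vps34-deficient libraries, and 4 to 5 higher and 1 to 6 lower in the average. The causes were not tested. With 2 libraries in 3 of the 4 groups, the fits rest on a spread shared by all groups, and weak peaks have few counts.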
